A study of Homo sapiens with 6 samples.

Results

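The genes described here belong to the integrated stress response and to the amino acid supply it controls. A list of 42 symbols was matched by name to the deposited expression table of MDA-MB-453 cells, and all 42 were found among its 60569 gene names. They fall into 3 kinases of the translation factor eIF2, 7 transcription factors, 10 feedback and effector targets, 13 enzymes of amino acid synthesis and 9 amino acid transporters or their partners. Where a name had more than 1 row, the row with the highest mean over the 6 libraries was kept. No difference between the groups entered the matching rule. Of the 42 genes, 41 reached FPKM 1 in at least 3 of the 6 libraries and were tested. FPKM is the number of fragments scaled by transcript length and by the library's total.

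MDA-MB-453, whose RNA was sequenced, is a human mammary carcinoma line of the luminal apocrine kind. Control vector was transfected for 3 libraries, and a ZNF207-overexpression construct for the other 3. ZNF207 is a zinc finger protein found with microtubules and with the checkpoint protein BUB3. All 6 libraries thus came from transfected cells of the same line, and the design text calls the 3 of each group independent biological replicates. The promoter of the construct, the time after transfection, the culture medium and whether the cells were pooled or cloned are unknown from the labels used here.

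In the integrated stress response, kinases that sense amino acid shortage, unfolded protein in the endoplasmic reticulum or mitochondrial and haem stress phosphorylate eIF2. Most translation is then reduced, while translation of the transcription factor ATF4 is raised through upstream open reading frames in its mRNA. ATF4, often with a C/EBP partner, turns on genes for asparagine, serine and proline synthesis, for amino acid uptake and for feedback on the response itself. The level of ATF4 mRNA is therefore not a measure of ATF4 protein, and no protein was measured here.

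ATF4 and C/EBP proteins bind together at a composite DNA element, the C/EBP-ATF response element, written here as TGATGNAA. RefSeq promoters on GRCh38.p14, each running from 250 bases before to 50 bases after an annotated gene start, were found for 36 of the 42 genes. No promoter was found for EIF2AK1, GPT2, NUPR1, PSPH, PYCR1 and PYCR3, so these were not searched. A match on either strand was present for 12 of the 36 genes, 33.3%, against 2.52% of the 9704 tested genes in the promoter table and 4.46% of all 27305 genes in it. Several of the 42 genes are known targets of ATF4, and the share is given as a description only. No other motif was searched. The promoters of ASNS, GOT1 and SLC3A2 are printed, since these were the genes with a match whose groups differed at an unadjusted p under 0.05. Capitals mark the match, and each sequence runs 5′ to 3′ along the strand of its gene.

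ASNS, chr7:97872359-97872658, minus strand: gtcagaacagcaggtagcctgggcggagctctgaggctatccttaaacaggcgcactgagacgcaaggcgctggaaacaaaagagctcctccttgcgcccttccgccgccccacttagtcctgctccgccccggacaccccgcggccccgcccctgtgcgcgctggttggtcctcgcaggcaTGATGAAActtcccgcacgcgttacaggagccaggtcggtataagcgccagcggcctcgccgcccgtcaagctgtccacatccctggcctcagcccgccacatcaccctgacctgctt
GOT1, chr10:99430575-99430874, minus strand: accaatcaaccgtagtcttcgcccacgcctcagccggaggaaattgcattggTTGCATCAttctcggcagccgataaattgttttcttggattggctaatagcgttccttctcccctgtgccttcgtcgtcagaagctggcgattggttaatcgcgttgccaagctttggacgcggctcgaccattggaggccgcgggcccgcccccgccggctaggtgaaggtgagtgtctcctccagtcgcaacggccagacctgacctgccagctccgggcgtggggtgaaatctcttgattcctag
SLC3A2, chr11:62881449-62881748, plus strand: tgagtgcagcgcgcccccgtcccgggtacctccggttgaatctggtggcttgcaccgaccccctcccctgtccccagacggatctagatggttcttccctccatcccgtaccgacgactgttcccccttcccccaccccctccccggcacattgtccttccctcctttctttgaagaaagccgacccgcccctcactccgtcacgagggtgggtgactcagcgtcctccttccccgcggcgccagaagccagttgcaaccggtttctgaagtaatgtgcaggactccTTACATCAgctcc

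The match in the ASNS promoter, TGATGAAA, began 68 bases before the gene start and read in the direction of the gene. In GOT1 the match read in the opposite direction (TTGCATCA in the printed strand) and began at position -198. In SLC3A2 it was TTACATCA, at position 38 after the start of the last of 3 annotated promoters. The other 9 genes with a match were ATF3, CEBPG, CHAC1, FGF21, PPP1R15B, SLC1A4, SLC1A5, SLC38A1 and SLC7A1. The 11 tested genes with a match had a median log2 difference of -0.01 and the 24 tested genes without a match one of -0.02. Bases outside these promoters were not searched, so a gene without a match may still hold the element elsewhere.

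ZNF207 (chromosome 17, 32350117 to 32381886, plus strand, GRCh38) was read first, to check the labels. It stood at 69.2, 67.0 and 63.7 FPKM in control libraries, against 885, 786 and 750.04 FPKM under overexpression (log2 difference 3.58, limma adjusted p = 4.03e-09). An exact two-sided permutation test over the libraries gave p = 0.1, its minimum for 3 against 3. Epithelial and luminal markers were present in every library, with KRT8 at 2808 to 3064 FPKM and FOXA1 at 129 to 155 FPKM. Of 13 markers of basal, fibroblast, leukocyte and endothelial cells, COL1A1 stood at 7.98 to 11.3 FPKM and CD68 at 0.696 to 1.395 FPKM, and the other 11 stayed under 1 FPKM in all libraries. Read depth is unknown, because the table holds no counts and its low values showed no steps of whole reads.

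None of the 41 tested genes passed the threshold (limma, adjusted p under 0.05), against 28 of 13185 genes, 0.212%, in the whole table. At an unadjusted p under 0.05, 6 of the 41 were lower (14.6%, against 7.03% of all tested genes) and 2 were higher (4.88%, against 5.08%). The lower ones were GPT2, GDF15, SLC7A5, PHGDH, ASNS and SLC3A2, and the higher ones GOT1 and PPP1R15A. All 3 overexpression libraries lay below all 3 controls for 3 of the 41 genes (7.32%, against 10.4% of all tested genes) and above them for 2 (4.88%, against 7.61%). The median log2 difference, overexpression minus control, was -0.03 over the 41 genes and -0.01 over all tested genes, with 26 of the 41 estimates below 0 (63.4%, against 52.4% of all tested genes) and 15 above. In a bulk sample, a lower level in each cell and fewer cells with the transcript cannot be told apart.

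Leaving out 1 library moved these counts. The 6 lower genes at an unadjusted p under 0.05 became 3 without control replicate 2 and 2 without control replicate 3. They became 3 without overexpression replicate 1, 3 without overexpression replicate 2 and 8 without overexpression replicate 3. The 2 higher genes became 3 without control replicate 3 and 1 without overexpression replicate 1. They became 0 when the library left out was control replicate 2 or either of overexpression replicates 2 and 3. The shares of all tested genes at that unadjusted level are not given for these fits. The 7.03% and 5.08% above belong to the fit of all 6 libraries. The median of the 41 genes became 0.01 without overexpression replicate 1 and -0.06 without overexpression replicate 3. The count of 28 genes over the whole table became 36, 9 and 14 without control replicates 1, 2 and 3. It became 9, 15 and 4 without overexpression replicates 1, 2 and 3.

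**Figure D1:**
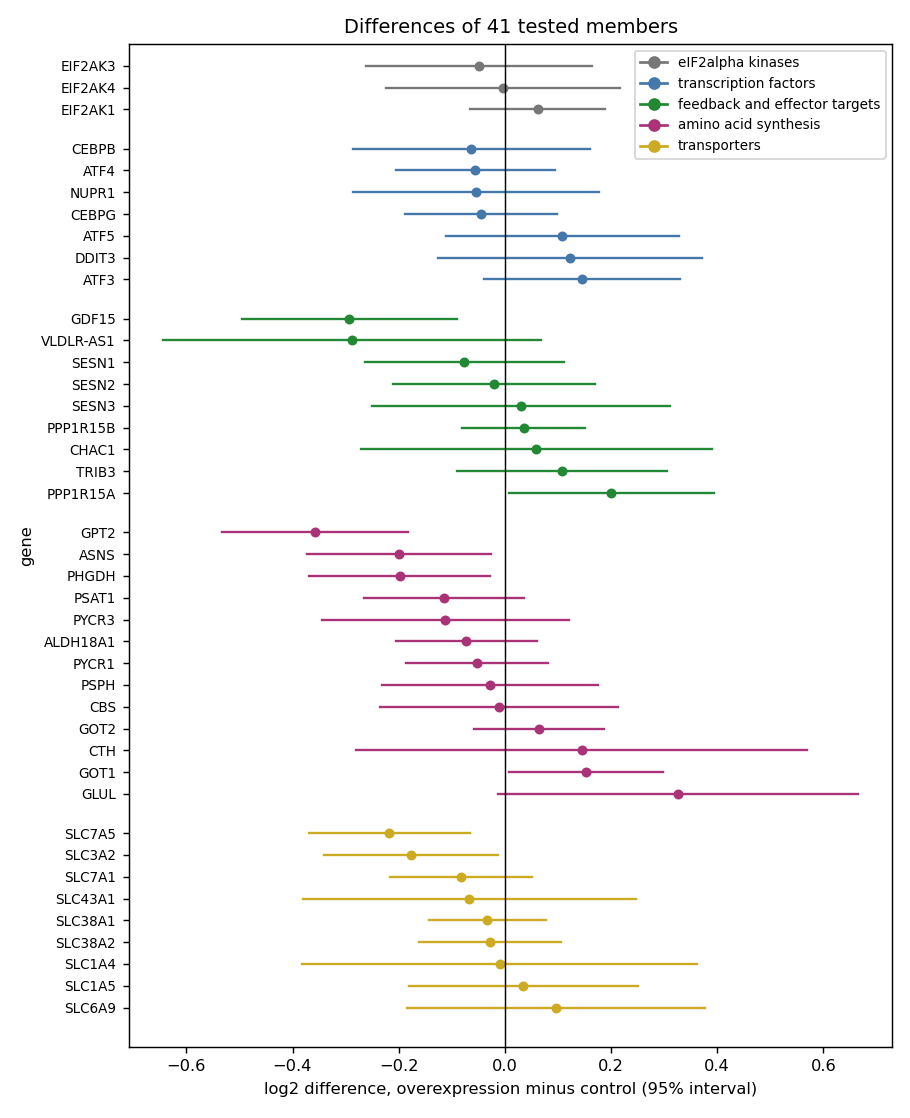
Log2 difference (x axis, log2(FPKM + 1), overexpression minus control) of each of the 41 tested genes (y axis), coloured by role, with the 95% interval from limma as a bar. The intervals of GPT2, GDF15, SLC7A5, PHGDH, ASNS and SLC3A2 lie below 0 and those of GOT1 and PPP1R15A above it before any adjustment for multiple testing, and all others span 0.

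The precision of the fit limits what could have been missed, for each tested gene taken singly and without adjustment for multiple testing. The intervals are on the log2(FPKM + 1) scale, which understates changes of low genes, and untested FGF21 has none. The 95% interval of a difference reached a median of 0.19 on either side of the estimate, on the log2 scale, over the 41 genes, and for 37 of them the whole interval lay between -0.5 and 0.5. The exceptions were GPT2 (-0.53 to -0.18), VLDLR-AS1 (-0.64 to 0.07), CTH (-0.28 to 0.57) and GLUL (-0.01 to 0.66). A p above the threshold does not show that a gene was at the same level in both groups.

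Levels ran over a wide range. Over the 6 libraries, 2 of the 42 genes averaged at least 1000 FPKM, 8 at least 100, 33 at least 10 and 41 at least 1. The upper end was held by SLC7A5 and SLC3A2, which form the cell surface exchanger for large neutral amino acids, and the lower end by FGF21, a secreted hormone of the liver's stress response. FGF21 was listed at 0, 0.122 and 0.390 FPKM in control libraries, against 0, 0.105 and 0.112 FPKM under overexpression, and was not tested.

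**Figure D2:**
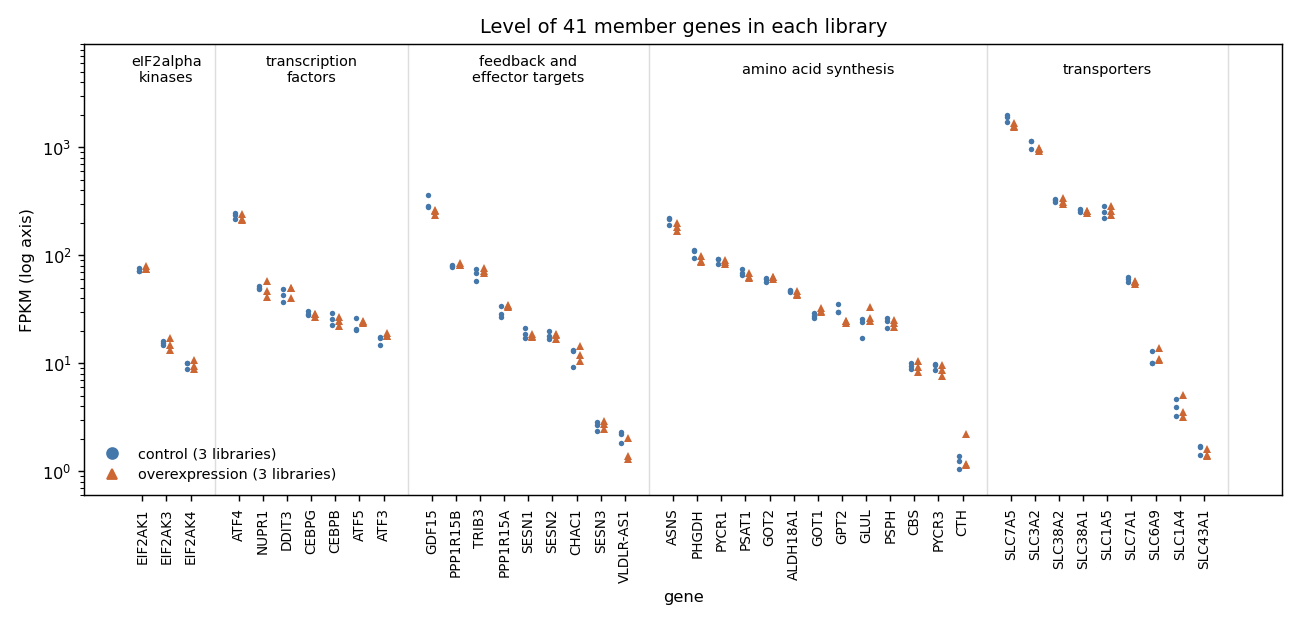
FPKM (y axis, log scale) of the 41 tested genes (x axis, ordered by mean level within each role) in each of the 3 control libraries (circles) and 3 overexpression libraries (triangles). SLC7A5, at 1544 to 1983 FPKM, is the most abundant and SLC43A1 and CTH lie near 1 to 2 FPKM, and the groups overlap for 36 genes and separate for ATF3, GOT1, GDF15, GPT2 and SLC7A5.

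None of the 3 kinases passed the test. EIF2AK1, the haem-regulated kinase that also relays mitochondrial stress, stood at 76.0, 70.8 and 72.0 FPKM in control libraries, against 74.0, 74.4 and 80.1 FPKM under overexpression (log2 difference 0.06, SE 0.06, limma adjusted p = 0.709). EIF2AK3, which encodes the endoplasmic reticulum kinase PERK, stood at 16.1, 14.9 and 15.4 against 13.3, 14.6 and 17.1 FPKM (-0.05, SE 0.09, adjusted p = 0.881). The overexpression libraries of EIF2AK3 spread on both sides of the controls. EIF2AK4, which encodes the amino acid sensor GCN2, averaged 9.64 ± 0.712 and 9.63 ± 0.986 FPKM (SD, n = 3 each, adjusted p = 0.994), with controls at 10.05, 8.82 and 10.06 FPKM and overexpression libraries at 9.40, 8.78 and 10.71 FPKM. In units of FPKM, EIF2AK1 was the most abundant of the 3 in every library.

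Among the transcription factors ATF4 was the most abundant. ATF4 (chromosome 22, 39519695 to 39522685, plus strand) stood at 215, 234 and 244 FPKM in control libraries, against 210.3, 218 and 239 FPKM under overexpression, means of 231 ± 14.6 and 222 ± 14.8 FPKM (log2 difference -0.06, SE 0.07, 95% interval -0.20 to 0.09, adjusted p = 0.79). The ranges of the groups overlapped almost fully. ATF3, a stress-induced factor that can repress ATF4 targets, stood at 17.1, 17.6 and 14.7 FPKM in control libraries, against 17.8, 17.9 and 19.0 FPKM under overexpression. All overexpression libraries of ATF3 were above all controls, by a narrow margin over control replicate 2, and the difference of 0.15 (SE 0.08) did not pass (unadjusted p = 0.109, adjusted p = 0.522). Without control replicate 3 the log2 difference of ATF3 was 0.07.

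DDIT3 encodes CHOP, the factor that links prolonged stress to cell death. It stood at 36.9, 49.1 and 42.4 FPKM in control libraries, against 40.5, 49.4 and 49.9 FPKM under overexpression (log2 difference 0.12, SE 0.11, adjusted p = 0.707). The groups overlapped, and the means of 42.8 ± 6.14 and 46.6 ± 5.27 FPKM (SD) lay closer together than the spread within either group. With single libraries left out, the log2 difference of DDIT3 ran from 0.02 (without control replicate 1) to 0.22 (without control replicate 2). CEBPB, a C/EBP family factor, had the lowest estimate of the 7 at -0.06 (adjusted p = 0.848), with controls at 22.5, 28.95 and 25.5 FPKM and overexpression libraries at 22.2, 26.7 and 24.4 FPKM. The remaining 3 were ATF5, a relative of ATF4 that is also controlled in translation (22.5 ± 3.47 and 24.1 ± 0.506 FPKM), CEBPG, a frequent partner of ATF4 (28.9 ± 1.13 and 28.0 ± 1.19 FPKM), and NUPR1, a small stress-induced chromatin protein (50.0 ± 1.60 and 48.5 ± 8.17 FPKM). The deposited table lists DDIT3 at a merged locus with 10 other rows, and GENCODE places NUP62 across ATF5 and MBD6 across DDIT3, so how reads were divided there is uncertain.

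The feedback and effector targets gave estimates of both signs. PPP1R15A (listed on chromosome 19, 48872421 to 48876058) encodes GADD34, the inducible subunit that directs a phosphatase to eIF2 and so ends the response. It stood at 33.8, 28.3 and 26.6 FPKM in control libraries, against 34.7, 34.2 and 33.0 FPKM under overexpression (log2 difference 0.20, SE 0.09, unadjusted p = 0.043, adjusted p = 0.393). Control replicate 1 lay among the overexpression libraries, and the other 2 controls lay below all of them. Without control replicate 3 the log2 difference was 0.13 (unadjusted p = 0.163, limma). Its constitutive relative PPP1R15B stood at 80.0 ± 1.96 and 82.0 ± 2.46 FPKM (adjusted p = 0.833).

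GDF15 (chromosome 19, 18374731 to 18389176, plus strand), a secreted hormone of the TGF-beta family, stood at 279.9, 359 and 288 FPKM in control libraries, against 260.3, 255 and 236 FPKM under overexpression. The groups did not overlap, and the mean ratio was 0.811 (log2 difference -0.29, SE 0.09, adjusted p = 0.236). Control replicate 2 was above the other controls, and without it the log2 difference was -0.18. TRIB3, a pseudokinase that binds and restrains ATF4, had a positive estimate, with 57.9, 68.7 and 73.7 FPKM in the controls and 67.8, 71.1 and 76.4 FPKM in the overexpression libraries (0.11, SE 0.09, adjusted p = 0.675). CHAC1, which degrades glutathione and is among the most responsive ATF4 and CHOP targets in many cells, stood at 9.20, 13.1 and 13.1 FPKM against 10.5, 12.0 and 14.4 FPKM (0.06, SE 0.15, adjusted p = 0.912). The ranges overlapped for both genes. Without control replicate 1 the log2 difference of TRIB3 was 0.01, and over all single libraries left out it reached 0.18.

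The sestrins, which lower mTORC1 activity when leucine is scarce, did not pass the test. SESN1 averaged 19.0 ± 1.94 and 17.9 ± 0.642 FPKM, SESN2 18.2 ± 1.70 and 17.9 ± 1.08 FPKM, and SESN3 2.63 ± 0.251 and 2.70 ± 0.230 FPKM, control first (adjusted p 0.763, 0.951 and 0.951). VLDLR-AS1 stood at 2.23, 2.30 and 1.82 FPKM against 1.38, 1.30 and 2.03 FPKM (log2 difference -0.29, SE 0.16, adjusted p = 0.508), and overexpression replicate 3 overlapped the controls. It is annotated as antisense to VLDLR, a lipoprotein receptor gene that ATF4 can induce, which stood at 14.0, 15.6 and 14.6 against 11.4, 11.8 and 10.4 FPKM (-0.37, adjusted p = 0.108). The labels used here give no strand setting for the counting, so how reads were divided where VLDLR-AS1 and VLDLR overlap is uncertain.

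Among the enzymes, the smallest p belonged to a transaminase. GPT2, mitochondrial alanine transaminase (listed on chromosome 16, 46884362 to 46931289), stood at 29.5, 35.2 and 29.5 FPKM in control libraries, against 24.5, 24.4 and 23.8 FPKM under overexpression. Every overexpression library was below every control, and the mean ratio was 0.771 (log2 difference -0.36, SE 0.08, 95% interval -0.53 to -0.18, unadjusted p = 0.00115, adjusted p = 0.107). Over 16 alternative analyses its log2 difference ran from -0.40 to -0.28 and its adjusted p was never under 0.0667. GOT1, cytosolic aspartate transaminase (listed on chromosome 10, 99396870 to 99430624), stood at 27.6, 26.3 and 29.1 FPKM against 30.7, 29.8 and 32.1 FPKM. Here every overexpression library was above every control (0.15, SE 0.06, unadjusted p = 0.0402, adjusted p = 0.383). The mitochondrial isoform GOT2 stood at 59.3 ± 2.36 and 62.1 ± 1.42 FPKM (adjusted p = 0.689).

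Asparagine synthetase, ASNS (chromosome 7, 97852118 to 97872542, minus strand), is the standard transcriptional target of amino acid shortage. It stood at 189.6, 217 and 219 FPKM in control libraries, against 167, 181 and 197 FPKM under overexpression, means of 209 ± 16.6 and 182 ± 15.2 FPKM (log2 difference -0.20, SE 0.08, unadjusted p = 0.0287, adjusted p = 0.339). Only overexpression replicate 3 reached into the control range, above control replicate 1. The deposited table lists ASNS at a merged locus with 14 other rows.

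Serine is made in 3 steps by PHGDH, PSAT1 and PSPH. PHGDH, the first and committed step (chromosome 1, 119648411 to 119744226, plus strand), stood at 94.1, 111 and 109.7 FPKM in control libraries, against 87.0, 88.8 and 98.0 FPKM under overexpression (log2 difference -0.20, SE 0.08, unadjusted p = 0.0272, adjusted p = 0.332). PSAT1, the transaminase of the second step, stood at 65.5, 68.8 and 73.9 FPKM against 60.9, 62.5 and 68.7 FPKM (-0.11, SE 0.07, adjusted p = 0.539). PSPH, the phosphatase of the last step, averaged 24.1 ± 2.61 and 23.6 ± 1.74 FPKM (adjusted p = 0.939). For PHGDH and PSAT1, as for ASNS, the overlap between groups came from overexpression replicate 3 lying above control replicate 1.

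None of the 3 enzymes of proline synthesis had groups that separated. ALDH18A1, its first enzyme, averaged 46.6 ± 0.951 and 44.3 ± 2.39 FPKM, PYCR1, the mitochondrial reductase, 89.5 ± 5.06 and 86.2 ± 3.31 FPKM, and PYCR3, the cytosolic reductase, 9.39 ± 0.651 and 8.64 ± 1.05 FPKM (adjusted p 0.675, 0.775 and 0.714). In transsulfuration, which makes cysteine from homocysteine, CBS stood at 9.44 ± 0.629 and 9.38 ± 1.05 FPKM and CTH at 1.23 ± 0.166 and 1.50 ± 0.597 FPKM. The near-identical copy of CBS, CBSL, was listed at no more than 0.291 FPKM. The higher mean of CTH came from overexpression replicate 2 alone, at 2.19 FPKM against 1.18 and 1.14 FPKM in the other 2. GLUL, glutamine synthetase, had the highest estimate of all 41 genes, with 25.7, 17.2 and 24.1 FPKM in the controls and 24.7, 26.4 and 33.2 FPKM in the overexpression libraries (log2 difference 0.33, SE 0.15, unadjusted p = 0.0572, adjusted p = 0.428). Its groups overlapped, and control replicate 2 and overexpression replicate 3 were the libraries that stood apart. Its log2 difference was 0.16 without the former and 0.20 without the latter.

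The transporters held the most abundant transcripts of the set. SLC7A5, the light chain LAT1 that carries leucine and other large neutral amino acids (chromosome 16, 87830023 to 87869488, minus strand), stood at 1725, 1883 and 1983 FPKM in control libraries, against 1544, 1576 and 1682 FPKM under overexpression. The groups did not overlap, with a gap of 1682 to 1725 FPKM, and the log2 difference was -0.22 (SE 0.07, unadjusted p = 0.00976, adjusted p = 0.236). Over 16 alternative analyses its log2 difference ran from -0.27 to -0.12 and its adjusted p was never under 0.0643. SLC3A2, the heavy chain that takes LAT1 to the cell surface (chromosome 11, 62856102 to 62888875, plus strand), stood at 963, 1145 and 1135 FPKM against 924, 959 and 979 FPKM (-0.18, SE 0.07, unadjusted p = 0.0368, adjusted p = 0.369). Control replicate 1 lay among the overexpression libraries of SLC3A2. Quantile scaling gave log2 differences of -0.08 for SLC3A2 (unadjusted p = 0.188, limma) and -0.12 for SLC7A5. The ratio of SLC7A5 to SLC3A2 in FPKM was 1.79, 1.64 and 1.75 in the controls and 1.67, 1.64 and 1.72 in the overexpression libraries, so the chains kept overlapping proportions. The copies SLC7A5P1 and SLC7A5P2 averaged 3.50 and 5.28 FPKM, and the labels used here do not say how reads shared with SLC7A5 were assigned.

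The neutral amino acid carriers SLC38A2, SLC38A1 and SLC1A5 followed in abundance and showed no separation. SLC38A2, which adapts to amino acid starvation, averaged 321 ± 11.6 and 315 ± 20.7 FPKM, SLC38A1 259 ± 8.34 and 253 ± 5.00 FPKM, and the glutamine carrier SLC1A5 251 ± 31.6 and 257 ± 24.5 FPKM (adjusted p 0.894, 0.837 and 0.924). The levels of SLC38A1 and SLC1A5 did not differ beyond their spread. SLC7A1, a carrier of arginine and lysine, averaged 59.4 ± 3.37 and 56.0 ± 1.55 FPKM (adjusted p = 0.634). SLC6A9, a glycine transporter, had the highest estimate of the 9, with 9.97, 10.1 and 12.99 FPKM in the controls and 11.1, 10.7 and 13.8 FPKM in the overexpression libraries (log2 difference 0.10, SE 0.13, adjusted p = 0.807). SLC1A4, which carries alanine, serine and cysteine, stood at 3.93 ± 0.700 and 3.93 ± 0.990 FPKM, and SLC43A1, a further carrier of large neutral amino acids, at 1.59 ± 0.161 and 1.47 ± 0.112 FPKM. CCDC24 overlaps SLC6A9 in GENCODE, so the division of reads there is uncertain.

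The libraries within each group differed from one another across much of the set. In the controls, replicate 1 was the lowest library for 22 of the 41 genes (53.7%, against 39.6% of all tested genes) and replicate 3 the highest for 21 (51.2%, against 40.0%). In the overexpression group, replicate 1 was the lowest for 25 (61.0%, against 39.8%) and replicate 3 the highest for 32 (78.0%, against 43.3%). The mean log2 level of the 41 genes was 5.21, 5.29 and 5.31 in the controls and 5.19, 5.24 and 5.32 in the overexpression libraries, so the groups overlapped and the range within each group exceeded the difference between them. The part of this spread in the results above was not tested.

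**Figure D3:**
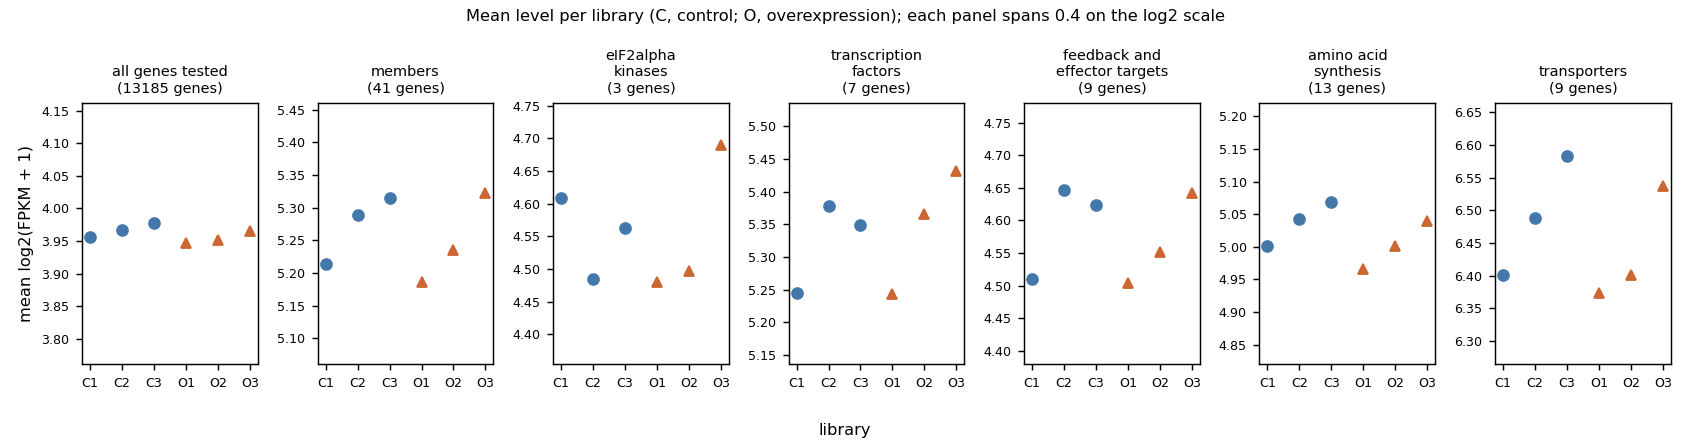
Mean log2(FPKM + 1) per library (y axis) for all 13185 tested genes, for the 41 tested genes of the set and for each role, in control libraries (circles, C1 to C3) and overexpression libraries (triangles, O1 to O3), each panel with its own axis of equal span. The 41 genes span 5.21 to 5.31 in the controls and 5.19 to 5.32 in the overexpression libraries, a wider range than that of all tested genes. A mean over 41 genes can vary more between libraries than one over 13185, and no sets of equal size were compared.

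Other genes of the same pathway were read from lists made without sorting by change, though with earlier results of these data known. None of their 97 tested genes passed the threshold (limma, adjusted p under 0.05). By unadjusted p under 0.05 alone, 13 were higher (13.4%, against 5.08% of all tested genes) and 7 were lower (7.22%, against 7.03%). Among 15 genes of eIF2 itself and its regulators, 2 were higher at that unadjusted level (13.3%, against 5.08% of all tested genes) and 0 lower (against 7.03%). They were EIF2B3, a subunit of the exchange factor that recharges eIF2, at 6.16 ± 0.324 and 7.88 ± 0.670 FPKM (adjusted p = 0.237), and DELE1, which relays mitochondrial stress to the kinase EIF2AK1, at 26.7 ± 1.08 and 30.3 ± 0.456 FPKM (adjusted p = 0.286). EIF2AK2, the kinase activated by double-stranded RNA, stood at 198 ± 12.6 and 213 ± 6.64 FPKM (adjusted p = 0.506).

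Of 16 tested ATF4 targets outside the set, 5 were lower by unadjusted p alone (31.2%, against 7.03% of all tested genes) and 0 were higher (against 5.08%). The median log2 difference was -0.10, against -0.01 over all tested genes. DDIT4, an inhibitor of mTORC1, stood at 564, 708 and 578 FPKM in control libraries, against 446, 498 and 404 FPKM under overexpression (-0.45, adjusted p = 0.108). STC2, a secreted glycoprotein, stood at 85.7, 103 and 79.4 FPKM against 66.8, 72.9 and 57.8 FPKM (-0.43, adjusted p = 0.137). VLDLR, given above, was the third of these whose groups did not overlap, where 10.4% of all tested genes lay wholly below the controls, and EIF4EBP1 and INHBE, at -0.19 and -0.38, were the other two. SLC7A11, the cystine carrier and a common ATF4 target, stood at 0.06 (adjusted p = 0.858).

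Among 20 genes of amino acid sensing by mTORC1, 2 were lower by unadjusted p alone (against 7.03% of all tested genes) and 0 were higher (against 5.08%). RRAGD, a small GTPase that brings mTORC1 to the lysosome, stood at 10.8, 12.8 and 11.3 FPKM in control libraries, against 7.41, 8.77 and 6.87 FPKM under overexpression (log2 difference -0.55, SE 0.11, adjusted p = 0.0848). BMT2, which encodes the S-adenosylmethionine sensor SAMTOR, averaged 27.0 ± 1.41 and 24.2 ± 0.990 FPKM (adjusted p = 0.397). The third smallest p was that of WDR24, a subunit of the amino acid signalling complex GATOR2, at 6.28 ± 0.851 and 7.25 ± 1.18 FPKM (adjusted p = 0.635).

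Of 14 tested amino acid enzymes outside the set, 4 were higher by unadjusted p alone (28.6%, against 5.08% of all tested genes) and 0 were lower (against 7.03%). ALDH4A1, which turns a proline breakdown product into glutamate, stood at 25.6, 23.8 and 27.1 FPKM in control libraries, against 29.9, 31.1 and 32.6 FPKM under overexpression (log2 difference 0.28, adjusted p = 0.137). GLUD1, glutamate dehydrogenase, averaged 44.5 ± 2.85 and 53.1 ± 3.90 FPKM (adjusted p = 0.208) and PRODH, the first enzyme of proline breakdown, 1.99 ± 0.385 and 2.92 ± 0.0422 FPKM (adjusted p = 0.291). Of 12 tested transporters outside the set, SLC7A6 and SLC7A8, light chains that also pair with SLC3A2, were the 2 higher ones, at 18.3 ± 1.73 and 22.9 ± 3.36 FPKM and at 6.51 ± 1.15 and 9.08 ± 1.94 FPKM (adjusted p 0.305 and 0.32), which is 16.7% of that list, and 0 were lower. The third smallest p there was that of the glutamate carrier SLC1A2, at 4.52 ± 0.686 and 5.48 ± 0.820 FPKM (adjusted p = 0.535).

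The other arms of the unfolded protein response, run by the sensors IRE1 and ATF6 beside PERK, gave 18 of 20 estimates above 0 (against 47.6% of all tested genes) and a median of 0.08. By unadjusted p alone, 5 of the 20 were higher (25.0%, against 5.08%) and 0 were lower (against 7.03%). HSPA5, the main chaperone of the endoplasmic reticulum, stood at 164, 157 and 172 FPKM in control libraries, against 192, 187 and 203 FPKM under overexpression (log2 difference 0.24, adjusted p = 0.127). HYOU1, a partner chaperone, stood at 45.9 ± 1.57 and 55.3 ± 3.73 FPKM (0.26, adjusted p = 0.134), and DNAJB9, a co-chaperone induced by IRE1, at 0.38 (adjusted p = 0.0958). The difference between these arms and the genes of the PERK arm was not tested.

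**Figure D4:**
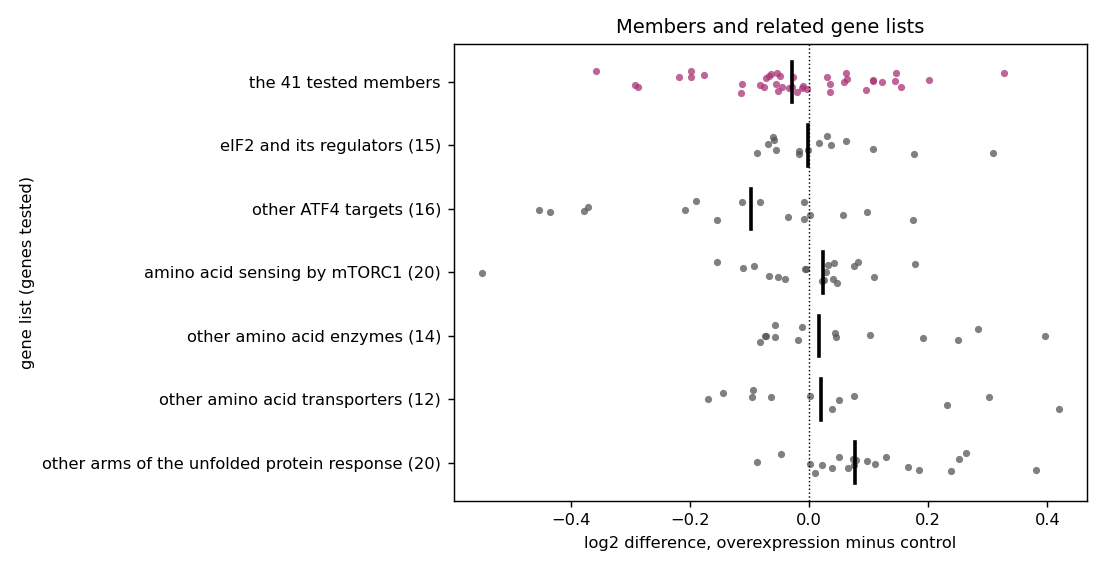
Log2 difference (x axis, overexpression minus control) of each tested gene in the set of 41 and in 6 lists of related genes (y axis, genes tested in brackets), with a black bar at each median and points spread vertically for legibility. The medians lie between -0.10 for other ATF4 targets and 0.08 for the other arms of the unfolded protein response, and the lowest point is RRAGD at -0.55.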

How the data were processed

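The deposited table holds FPKM per gene for 6 RNA-seq libraries, on hg38 per the submitters' processing notes, which name Bowtie2, RSEM 1.3.1 and DESeq2 1.4.5 without their roles. FPKM were computed by the authors; counts, depth, strand setting and annotation version are unknown from the labels used here. Columns were assigned to groups by their names and replicate digits, and 0 columns went unused.

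The 60658 rows gave 60569 gene names, with the row of the highest mean kept for a repeated name. Of these, 13185 at FPKM 1 or more in at least 3 libraries were tested two-sided on log2(FPKM + 1). That scale understates changes of low genes. The test was limma 3.58.1 (variance trend, Benjamini-Hochberg over all tested genes, threshold 0.05), and the procedure was tested on simulated data. Coordinates are GENCODE v29 (GRCh38), or the table's own range, written as "listed". Promoters were taken from RefSeq. Alternatives changed the pseudocount, filter, scaling, weights, variance trend and replicate block, and left out each library. Values in every library are given for a listed core of the pathway, for members at an unadjusted p under 0.05 and for the lowest and highest difference of each role; of each related list, the 3 genes with the smallest p are named. EIF4EBP1, INHBE, SLC7A11 and the per-library values of VLDLR-AS1 were added after values were seen. The members and lists were chosen with earlier results of these data known. Some genes of the lists are not reported here by name.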

Additional observations from a re-analysis of the deposited data

How the results depend on the processing

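None of the tested members passed the threshold under any of the 16 alternatives (limma, smallest adjusted p = 0.0643, SLC7A5 with the replicate block). The 8 members at an unadjusted p under 0.05 kept their direction in all 16. They were picked by p in the main fit and the alternatives reuse its 6 libraries, so this is no independent support. Their unadjusted p stayed under 0.05 in all 16 for GPT2 and GDF15, 15 for SLC7A5, 11 for PHGDH and 10 for ASNS. It did so in 9 for GOT1 and in 8 each for SLC3A2 and PPP1R15A. Of the 41 members, 17 lay below 0 and 10 above 0 in every alternative that tested them, and 14 changed sign in at least 1. The matching shares of all tested genes are not given, so these counts describe the members only. The member median of -0.03 ran from -0.0641 to 0.00996 when single libraries were left out, and turned positive without overexpression replicate 1. The 28 genes changed in the whole table became 4 with no filter, 64 with a filter at FPKM 5, 17 with median-of-ratios scaling, 5 with no variance trend, and 4 to 36 when single libraries were left out; the cause was not tested. Members lower at an unadjusted p under 0.05 numbered 4 with no filter and 3 with no variance trend, against 6. The share of all tested genes at that level in those fits is not given.

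Libraries with the same replicate number deviated together with correlations of 0.136, 0.0088 and 0.1745 across genes. Those of replicates 1 and 3 were the highest of any control and overexpression pair. Control replicate 2 correlated better with overexpression replicate 1 (0.0705) than with its own number. Whether the numbers pair the libraries is not settled by these values, and the main fit used no block. With the replicate block 145 genes passed, and no member's call at an adjusted p under 0.05 changed. At an unadjusted p under 0.05 (limma), 7 members were lower and 3 higher with the block, against 6 and 2 without it. PSAT1 (lower) and GLUL (higher) were the added ones. The share of all tested genes at that unadjusted level with the block is not given here. Whether the rise is particular to the members is therefore not known. No depth was available to set limits on low genes.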
